A study of Homo sapiens with 39 samples.

Results

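The ATP-binding cassette (ABC) genes are described here across cells that make 12 different isoforms of hepatocyte nuclear factor 4 alpha (HNF4A), a nuclear receptor that drives gene programmes of liver and gut epithelium. Members were chosen by name: every gene whose symbol is ABC, a family letter from A to G and a number, plus CFTR, present in all 13 deposited tables. The rule found 47 genes of 45435 rows in all. They comprise 12 genes of family A, 9 of B, 13 of C with CFTR counted among them, 4 of D, 1 of E, 3 of F and 5 of G, on 17 chromosomes. ABCC13 is annotated as a transcribed pseudogene in GENCODE 29.

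The cells were HCT116, an established human colorectal cancer line, in its Flp-In T-REx form, in which a construct is placed at a fixed site and switched on by doxycycline. The parental group carried no HNF4A construct. Of the other groups, 12 in number, each held a single stable line with 1 HNF4A isoform (isoform 1 to isoform 12) fused at its C-terminus to green fluorescent protein (GFP). All 13 groups received 2.5 µg/ml doxycycline for 48 h, with selection antibiotics withdrawn at induction. Earlier culture differed in 1 antibiotic: zeocin for the parental cells and hygromycin B for the lines, both on top of blasticidin. No group made GFP alone and each isoform is 1 line, so an isoform, its line and its tag cannot be told apart. The labels do not say that the 3 libraries of a group came from separate cultures, so p-values measure the spread between these libraries, which may be technical. The comparison of a line with the parental cells asks which ABC genes change when that isoform is made. By the standard nomenclature, and not the labels, isoforms 1-3, 4-6, 7-9 and 10-12 are 4 N-terminal forms, isoforms 2, 5, 8 and 11 carry a 10-residue insertion, and isoforms 3, 6, 9 and 12 have a short C-terminus.

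ABC proteins share a domain that binds and hydrolyses ATP, and most use it to move a substrate across a membrane. In gut and liver epithelium they export drugs, conjugates, bile salts, phospholipid and sterols, while other members serve peroxisomes, mitochondria and lysosomes, and the E and F families carry the ATP-binding domain without a membrane part and act on ribosomes. HNF4A binds DNA as a homodimer at repeats of a half-site of the AGGTCA type or at the related sequence CAAAGTCCA. Several of its known target genes belong to lipid and xenobiotic metabolism.

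The 39 libraries had between 27884 and 30550 genes above 0 TPM (an abundance per transcript length, scaled to a fixed total per library). HNF4A mRNA, summed over its 12 deposited rows, was between 30.8 and 31.9 TPM in the parental libraries and between 407 and 1110 TPM in the lines. Within isoform 3, replicate 1 stood at 407 TPM of HNF4A while the others stood at 833 and 772, so values called in that line are also given without it. The gut epithelial markers EPCAM (433 to 624 TPM), KRT8, KRT18 and KRT19 were high, each at 324 TPM or more in every library. All 8 listed gut markers summed to 2490 to 5640 TPM, but KRT20 stayed under a mean of 1 TPM. VIL1 averaged 0.554 TPM in the parental cells and reached a mean of 1 TPM only through lines where it was higher. Lists for other cells were low: hepatocyte markers summed to 0.636 to 7.36 TPM, immune markers to 1.21 to 2.35, endothelial markers to 1.51 to 6.78 and fibroblast markers to 7.82 to 15.6, nearly all COL1A1, and TTR, CD3E, COL1A2, DCN and LUM never reached 0.1 TPM. Of these markers, KRT19 and PECAM1 were called higher in 1 line each (isoform 7 and isoform 1), APOA1 in 2 and VIL1, a brush border protein, in 9, with up to 45.6 TPM, and their part in the results was not tested. In bulk RNA, fewer cells with a transcript and less transcript per cell cannot be told apart.

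Promoter sequence was searched in the RefSeq table (GRCh38.p14), which matched 36 of the 47 members with 54 windows, as a gene can have several starts. The window was the 250 bases before each start, on both strands. Neither CAAAGTCCA nor CAAAGGTCA was in any member's window. These motifs were in 0.325% and 0.339% of all 35116 windows. Allowing any base at the position marked N, CAAAGTNCA (which includes CAAAGTCCA) was in the windows of 2 members, ABCC2 and ABCD3, against 0.94% of all windows. Their windows are printed because both genes are described below and drawn there in every library. Capitals mark the match. It lies on the minus strand relative to the gene 44 to 36 bases before the start in ABCC2 (chr10:99782390-99782639, plus strand), and on the plus strand 91 to 83 bases before the start in ABCD3 (chr1:94418139-94418388, plus strand).
ABCC2: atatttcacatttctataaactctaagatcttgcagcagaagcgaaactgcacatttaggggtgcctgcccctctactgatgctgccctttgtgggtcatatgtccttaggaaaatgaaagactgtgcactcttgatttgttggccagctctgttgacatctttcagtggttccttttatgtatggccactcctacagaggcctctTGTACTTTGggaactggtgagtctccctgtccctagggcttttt
ABCD3: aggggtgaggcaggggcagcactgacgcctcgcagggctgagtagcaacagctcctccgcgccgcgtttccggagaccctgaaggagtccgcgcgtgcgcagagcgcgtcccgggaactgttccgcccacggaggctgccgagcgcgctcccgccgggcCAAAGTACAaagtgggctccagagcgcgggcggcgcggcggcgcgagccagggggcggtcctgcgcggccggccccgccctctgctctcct
The shorter AGGTCA, which is contained in CAAAGGTCA, was in the windows of ABCF1, ABCG2 and CFTR and in 12.1% of all windows. In ABCG2 it was in 1 of 5 windows, whose start lies 72683 bases inside the GENCODE span of the gene, and the CFTR window starts 14241 bases inside that gene's span. AGTCCA, contained in CAAAGTCCA, was in those of ABCB6, ABCC11, ABCD2, ABCD4 and ABCF2 and in 9.63% of all. The ABCD2 window with the match starts 14244 bases inside the GENCODE span of that gene. These matches describe letters only.

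Of the 47 members, 25 reached a mean of 1 TPM over the 39 libraries and were tested, and 22 lay under it. The highest were not transporters: ABCE1, which recycles ribosomes, averaged 187 TPM, and ABCF2, a soluble translation-related protein, averaged 106 TPM. The highest membrane transporters were ABCD3, a peroxisomal importer of fatty acyl-CoA, at 80.3 TPM, ABCC3, a basolateral exporter of conjugates and bile salts, at 48.5 TPM, and ABCC1, a drug and glutathione-conjugate exporter, at 36.8 TPM. By family, 5 of 12 A genes, 5 of 9 B, 7 of 13 C, 3 of 4 D, 1 of 1 E, 3 of 3 F and 1 of 5 G were tested. At the other end, CFTR, the chloride channel of secretory epithelium, never exceeded 0.0373 TPM and was listed at 0 in 15 libraries, and ABCB11, the bile salt export pump, never exceeded 0.0282 TPM and was listed at 0 in 24.

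**Figure D1:**
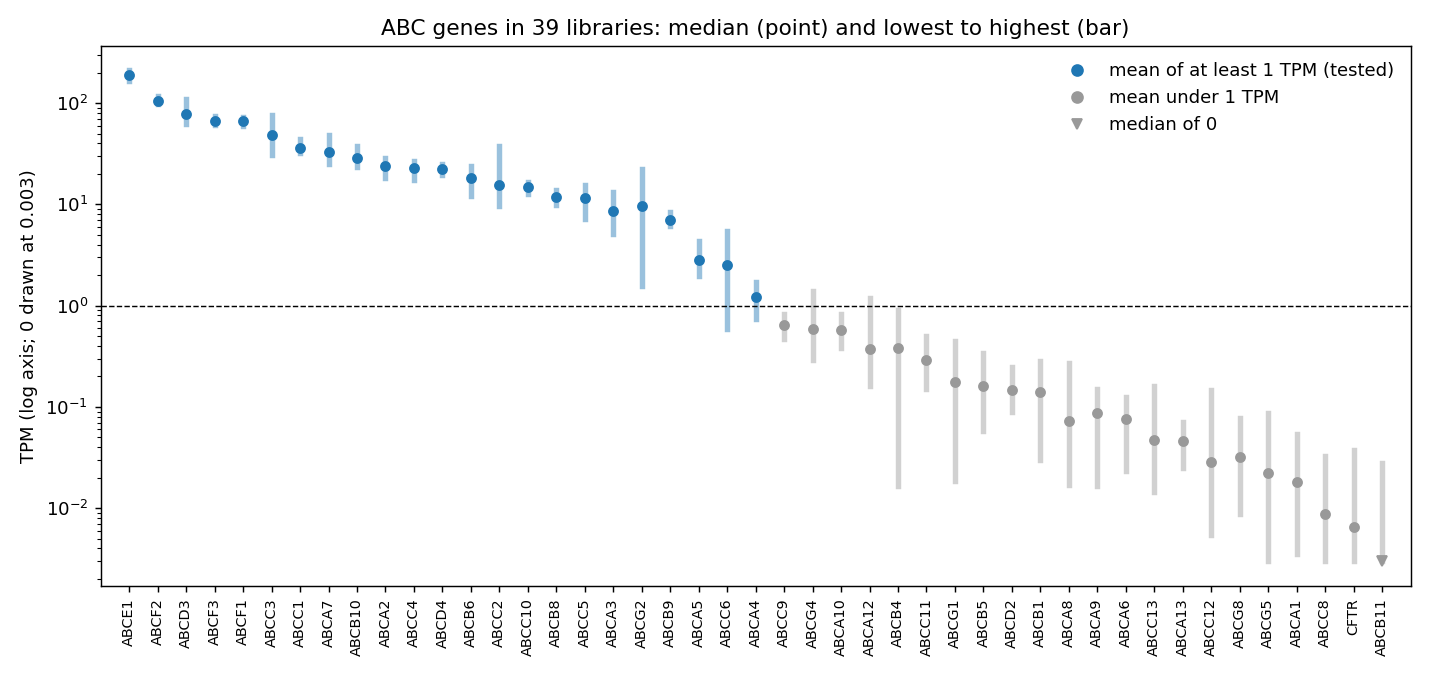
Level of 45 ABC genes in 39 libraries, in TPM on a log axis, ordered by mean; points are medians and bars run from the lowest to the highest library, with 0 drawn at 0.003. ABCG2 spans 1.55 to 22.4 TPM and ABCB4 spans 0.0165 to 0.909 TPM, wider ranges than those of ABCE1 or ABCF2.

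Each gene was tested on log2(TPM + 1) with limma in 1 fit over all libraries. A gene passed at a Benjamini-Hochberg adjusted p under 0.05 over the 15003 genes tested, and was called if its log2 fold change was also at least 1 in size. Only 3 ABC genes were called in any line, ABCG2, ABCC6 and ABCC2, all higher than in the parental cells, and none was called lower. Over all tested genes, 3.6% were called higher in at least 1 line and 3.18% lower. ABCC6, with a parental mean under 1 TPM, reached the filter through lines where it was higher. Its part in the counts of called and passed members is therefore a description only. ABCG2, ABCC6 and ABCC2 were called in isoforms 1 and 2, where 4.52% and 3.73% of all genes were called. ABCG2 and ABCC6 were called in isoforms 7 and 11, against 2.08% and 1.7% of all genes. ABCG2 alone was called in isoforms 3, 8, 9, 10 and 12, against 0.807%, 1.41%, 0.827%, 1.44% and 0.573% of all genes. With limma no ABC gene was called in isoforms 4, 5 and 6, where 0.54%, 0.293% and 0.247% of all genes were and 10, 8 and 5 ABC genes of 25 had an unadjusted p under 0.05, against 29.3%, 26.9% and 23.1% of all genes.

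Smaller changes were more common. The members that passed, in order from isoform 1 to isoform 12, numbered 17, 17, 10, 4, 5, 3, 11, 9, 10, 10, 10 and 8 of 25. The shares of all tested genes that passed were 58.5%, 55.3%, 26%, 16.3%, 14.8%, 10.1%, 39.6%, 34.4%, 22.7%, 37.3%, 38.5% and 14.6% in the same order. In isoform 1, for example, 12 members passed higher and 5 lower. The shares of all genes are not split by direction, so such splits of members are a description only. The median log2 fold change in isoform 1 was 0.08 over the 25 members and -0.11 over all genes. Rescaling each library by its median ratio moved that median of all genes from -0.11 to -0.01, the greatest such shift. With that scaling the split of higher to lower went from 12 and 5 to 15 and 4 for isoform 1 and from 7 and 1 to 7 and 2 for isoform 12. The share that passed higher moved most for isoforms 2, 5, 7 and 11: from 11 and 6 to 14 and 3 for isoform 2, from 4 and 1 to 4 and 0 for isoform 5, from 7 and 4 to 10 and 2 for isoform 7, and from 7 and 3 to 11 and 2 for isoform 11. Of the 114 passes over all lines, 106 were kept with it and none of those turned.

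**Figure D2:**
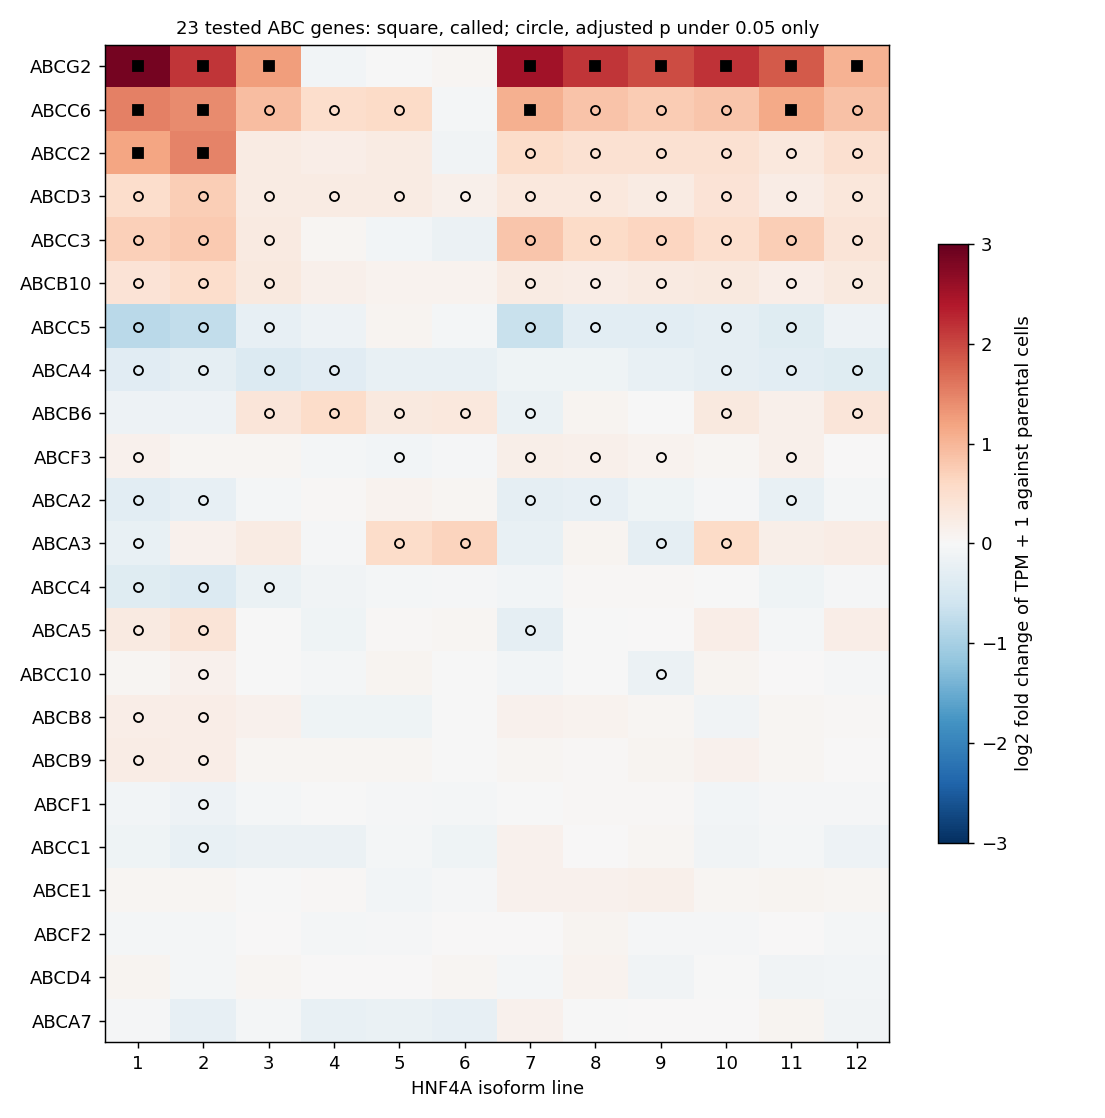
Log2 fold change of TPM + 1 against the parental cells for 23 tested ABC genes (rows) in the 12 lines (columns); squares mark called genes and circles those with an adjusted p under 0.05 only. ABCG2 is called in 9 lines and not in isoforms 4, 5 and 6, and ABCD3 has a circle in all 12 columns.

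ABCG2, the breast cancer resistance protein, is an apical exporter of drugs, urate and porphyrins (chromosome 4, 88090264 to 88231322, minus strand, GRCh38). The parental libraries had 2.1, 2.19 and 1.85 TPM of ABCG2. Isoform 1 had 21.1, 20.6 and 22.4 TPM and isoform 7 had 16.7, 16.8 and 16.2 TPM, the highest of all groups. The mean of isoform 1, 21.4 TPM, was 10.4-fold that of the parental cells, and that of isoform 7 was 8.09-fold. The differences of log2(TPM + 1), which are smaller because 1 is added, were 2.88 ± 0.11 in isoform 1 (SE; limma adjusted p = 2.17e-19) and 2.53 in isoform 7. Next came isoform 10 with 12.7, 12 and 13.5 TPM, isoform 2 with 12.8, 11.9 and 12.7, and isoform 8 with 13.3, 11.4 and 12.7. These 3 lines overlapped one another. Isoform 9 had 9.67, 10.6 and 12.2 TPM and isoform 11 had 10.1, 9.88 and 9.4, also overlapping. Isoform 3 had 4.7, 6.74 and 7.77 TPM and isoform 12 had 4.7, 5.73 and 5.47, the lowest of the 9 called lines. All 27 libraries of these 9 lines, from 4.7 to 22.4 TPM, lay above every parental library. In isoforms 4, 5 and 6 the 9 libraries ranged from 1.55 to 2.5 TPM around a median of 2.01, overlapped the parental ones, and had log2 fold changes of -0.09, -0.01 and 0.07 with limma adjusted p of 0.606, 0.982 and 0.745. Without replicate 1 the log2 fold change of isoform 3 was 1.44 in place of 1.26. That of isoform 12 was 1.05 and came to 1.00, just under the minimum, without parental replicate 3 or without isoform 12 replicate 2 (limma adjusted p = 1.28e-06 and 1.22e-06).

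ABCC2 (MRP2) exports glucuronide and glutathione conjugates across the apical membrane and carries bilirubin conjugates into bile (chromosome 10, 99782640 to 99852594, plus strand). Its parental libraries had 12.3, 11.4 and 10.9 TPM. Isoform 1 had 26.7, 27.3 and 28.2 TPM, and isoform 2 had 37.7, 31.1 and 34.1 TPM. The log2 fold changes were 1.18 ± 0.09 and 1.49 ± 0.09 (SE; limma adjusted p = 3.25e-12 and 2.17e-14), 2.38-fold and 2.98-fold in mean TPM. All 6 libraries lay above the 30 libraries of the other lines, whose highest was 17.8 TPM. ABCC2 also passed, between 0.32 and 0.54, in each of isoforms 7 to 12. Isoform 3, with 12.5, 14.4 and 14.6 TPM, did not pass (0.24; limma adjusted p = 0.0526, and 0.0351 with median-ratio scaling), although it shares its N-terminal form with isoforms 1 and 2. In isoforms 4, 5 and 6 ABCC2 ranged from 9.61 to 14.9 TPM and did not pass.

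ABCC6 (MRP6), known for cellular ATP release and for limiting calcification of connective tissue, is mainly a liver and kidney gene and lies beside ABCC1 on chromosome 16 (16148928 to 16223522, minus strand). The parental libraries had 0.593, 1.07 and 1.09 TPM, a mean under 1, so ABCC6 reached the filter through lines where it was higher. It had 4.87, 4.93 and 3.67 TPM in isoform 1 and 3.29, 5.4 and 3.71 TPM in isoform 2. It had 3.86, 3.08 and 2.22 TPM in isoform 7 and 3.13, 3.33 and 3.12 TPM in isoform 11. The log2 fold changes in these 4 lines were 1.52, 1.41, 1.07 and 1.14, each ± 0.17 (SE), with limma adjusted p of 5.97e-09, 3.19e-08, 6.68e-06 and 3.06e-06. In isoform 7 the value was 0.95 without parental replicate 1 and 0.93 without isoform 7 replicate 1, under the minimum but with limma adjusted p of 0.000173 and 0.000191. ABCC6 passed in 11 lines, and in each of them its 3 libraries lay above all parental ones. The exception was isoform 6, with 0.627, 1.08 and 0.826 TPM. In isoform 3, with 2.22, 2.51 and 3.23 TPM, ABCC6 passed at 0.93 and was also called without replicate 1. The near-identical pseudogene copies ABCC6P1 and ABCC6P2 never exceeded 0.101 and 0.126 TPM, and reads shared with them could be split by the quantification.

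**Figure D3:**
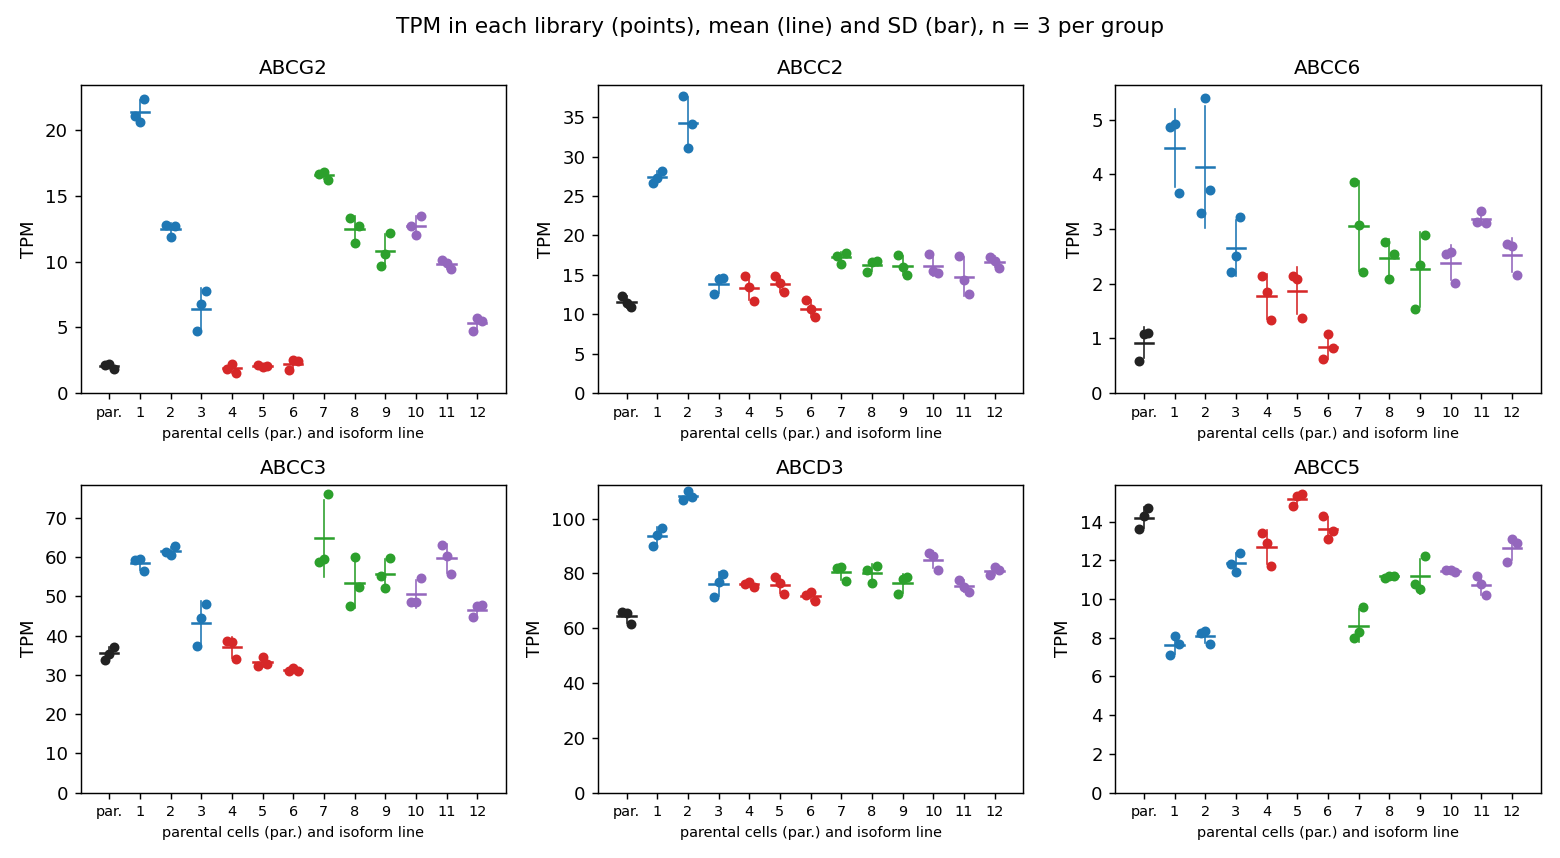
TPM of 6 ABC genes in each of 39 libraries, by group (parental cells, then isoforms 1 to 12); points are libraries, lines are means and bars are SD, n = 3. In the ABCG2 panel isoforms 4, 5 and 6 lie at 1.55 to 2.5 TPM beside the parental cells, and in the ABCC5 panel isoforms 1, 2 and 7 are lowest.

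The other tested ABCC genes are further multidrug resistance proteins. ABCC3 (MRP3), on the basolateral side, had 33.8, 35.4 and 37.2 TPM in the parental cells. Isoform 1 had 59.2, 59.5 and 56.6 TPM, isoform 2 had 61.4, 60.6 and 62.8, and isoform 7 had 58.8, 59.5 and 76.2. It passed higher in 9 lines, with its largest log2 fold change in isoform 7 (0.84 ± 0.09 SE; limma adjusted p = 2.25e-09). Over isoforms 4, 5 and 6 the ABCC3 libraries ranged from 30.9 to 38.6 TPM, and none of these lines passed. ABCC5 (MRP5), an exporter of cyclic nucleotides, went the other way: it had 13.6, 14.3 and 14.7 TPM in the parental cells, against 7.13, 8.07 and 7.66 TPM for isoform 1, 8.26, 8.33 and 7.7 for isoform 2, and 7.99, 8.28 and 9.59 for isoform 7. ABCC5 fell by 0.82, 0.74 and 0.66 on the log2 scale there (limma adjusted p = 7.62e-13, 9.23e-12 and 2.2e-10), and it passed lower in 8 lines, all but isoforms 4, 5, 6 and 12 (isoform 12 passed too with median-ratio scaling, at -0.15; limma adjusted p = 0.0419). ABCC4, another exporter of cyclic nucleotides and prostanoids, passed lower in isoforms 1, 2 and 3 (-0.37, -0.40 and -0.21). ABCC1 passed in isoform 2 alone, at -0.23, and no longer with median-ratio scaling (-0.14; limma adjusted p = 0.0749), under which it passed higher in isoform 7 (0.19; limma adjusted p = 0.0207). ABCC10 passed higher in isoform 2 (0.13) and lower in isoform 9 (-0.18), and with median-ratio scaling also higher in isoform 1 (0.18; limma adjusted p = 0.00106).

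Of the peroxisomal importers, ABCD3 (PMP70, for long and branched acyl-CoA and bile acid precursors) was the only member that passed in all 12 lines. The share of all tested genes that did so was not counted. All 12 comparisons use the same parental libraries, so these passes of ABCD3 are a description only. The parental libraries had 65.9, 65.6 and 61.7 TPM. Isoform 1 had 90.1, 94.2 and 96.5 TPM and isoform 2 had 107, 110 and 108 TPM. The log2 fold change was 0.53 in isoform 1 and 0.74 ± 0.04 (SE; limma adjusted p = 2.85e-15) in isoform 2. In the other 10 lines it was between 0.15 (isoform 6; limma adjusted p = 0.0161) and 0.40 (isoform 10), and their 30 libraries ranged from 69.8 to 87.4 TPM, all above the parental ones. ABCD2, for very long chain acyl-CoA, averaged 0.145 TPM. ABCD4, which serves lysosomal cobalamin export, did not pass in any line, with log2 fold changes from -0.11 to 0.11, though it passed in isoform 1 with median-ratio scaling.

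All 5 tested members of family B stayed below the minimum fold change. ABCB10, of the mitochondrial inner membrane and linked to heme synthesis, had 23.4, 25.2 and 24.5 TPM in the parental cells and 37.3, 35.7 and 33.9 TPM in isoform 2, which is 0.53 ± 0.07 on the log2 scale (SE; limma adjusted p = 5.43e-07). It passed higher in the 9 lines other than isoforms 4, 5 and 6, and also in isoform 4 with median-ratio scaling (0.20; limma adjusted p = 0.0268). ABCB8, of the mitochondrial inner membrane, and ABCB9, a lysosomal peptide transporter, passed higher in isoforms 1 and 2. With median-ratio scaling ABCB8 also passed higher in isoforms 3 and 7 (0.16 and 0.19; limma adjusted p = 0.0335 and 0.00693). ABCB6, a porphyrin-linked transporter, had another order. Its parental libraries had 16.7, 15.3 and 14.5 TPM and those of isoform 4 had 24.1, 22.7 and 22.8 TPM, higher by 0.55 ± 0.07 on the log2 scale (SE; limma adjusted p = 2.07e-06). ABCB6 passed higher in isoforms 3, 4, 5, 6, 10 and 12, and lower in isoform 7 (-0.20), a pass that was lost with median-ratio scaling (-0.13; limma adjusted p = 0.181). With that scaling it also passed higher in isoform 11 (0.21; limma adjusted p = 0.0278).

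Among the lipid transporters of family A, ABCA3, the lamellar body phospholipid transporter of lung, had 7.53, 7.97 and 8.14 TPM in the parental cells, against 12.4, 12 and 11.3 for isoform 5, 12.8, 13.3 and 13.2 for isoform 6, and 11.7, 11.8 and 13.2 for isoform 10. ABCA3 passed higher in these 3 lines (0.54, 0.67 and 0.57), and its libraries there lay above all parental ones. Lower passes of ABCA3 were near the threshold: -0.23 in isoform 1 (limma adjusted p = 0.0441, and 0.201 with median-ratio scaling) and -0.26 in isoform 9 (limma adjusted p = 0.0494). With that scaling ABCA3 also passed higher in isoforms 2, 3 and 11 (0.22, 0.29 and 0.22). ABCA4, the retinoid flippase of photoreceptors, was barely above the filter, at 1.58, 1.71 and 1.65 TPM in the parental cells. All 36 libraries of the lines were below these, and 7 lines passed lower, with the greatest fall in isoform 3 (-0.41). How many of all tested genes separate in this way was not counted, so the separation is a description only. ABCA2, an endolysosomal sterol transporter, passed lower in isoforms 1, 2, 7, 8 and 11, between -0.32 and -0.23. The passes in isoforms 2 and 11 were lost with median-ratio scaling (limma adjusted p = 0.0549 and 0.0502). ABCA5 passed higher in isoforms 1 and 2 (0.27 and 0.39) and lower in isoform 7 (-0.26, and -0.21 with median-ratio scaling; limma adjusted p = 0.0694). ABCA5 overlaps ABCA10 in position on the same strand of chromosome 17. ABCA7, a phospholipid exporter, did not pass in any line, with log2 fold changes from -0.25 to 0.14.

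Of the members that act on ribosomes, ABCE1 ranged from 167 to 210 TPM and ABCF2 from 97.1 to 118 TPM over all 39 libraries, and neither passed in any line. With median-ratio scaling ABCE1 passed higher in 6 lines, with log2 fold changes from 0.13 to 0.21. ABCF3 passed higher in isoforms 1, 7, 8, 9 and 11 and lower in isoform 5, all within 0.18 of no change, and the isoform 5 pass was lost with median-ratio scaling (-0.10; limma adjusted p = 0.0611). With that scaling ABCF3 also passed higher in isoforms 2 and 3 (0.14 and 0.10). ABCF1 passed in isoform 2 alone (-0.15), and not with median-ratio scaling (-0.06; limma adjusted p = 0.257).

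To compare isoform forms, a model was fitted to the 12 line means with a term for the N-terminal form and others for the insertion and the short C-terminus. In isoforms 4-6 against isoforms 1-3, 1 member was called, ABCG2, at -2.10 ± 0.26 (SE; limma adjusted p = 0.00137), against 1.95% of all genes. Another 11 passed below the minimum fold, so that 12 of 25 passed, against 34.6% of all genes. ABCC6 (-0.94), ABCC2 (-0.86), ABCC3 (-0.66), ABCD3 and ABCB10 (-0.29 each), ABCB8 (-0.26) and ABCF3 (-0.14) were among those lower in isoforms 4-6. ABCC5 (0.56), ABCA2 and ABCC4 (0.27 each) were higher there. ABCB6 and ABCA3, at 0.36 and 0.34, did not pass (limma adjusted p = 0.0672 and 0.2). Leaving out the isoform 3 line, ABCC2 and ABCC6 were called too, and leaving out the isoform 5 line, ABCC6 was.

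**Figure D4:**
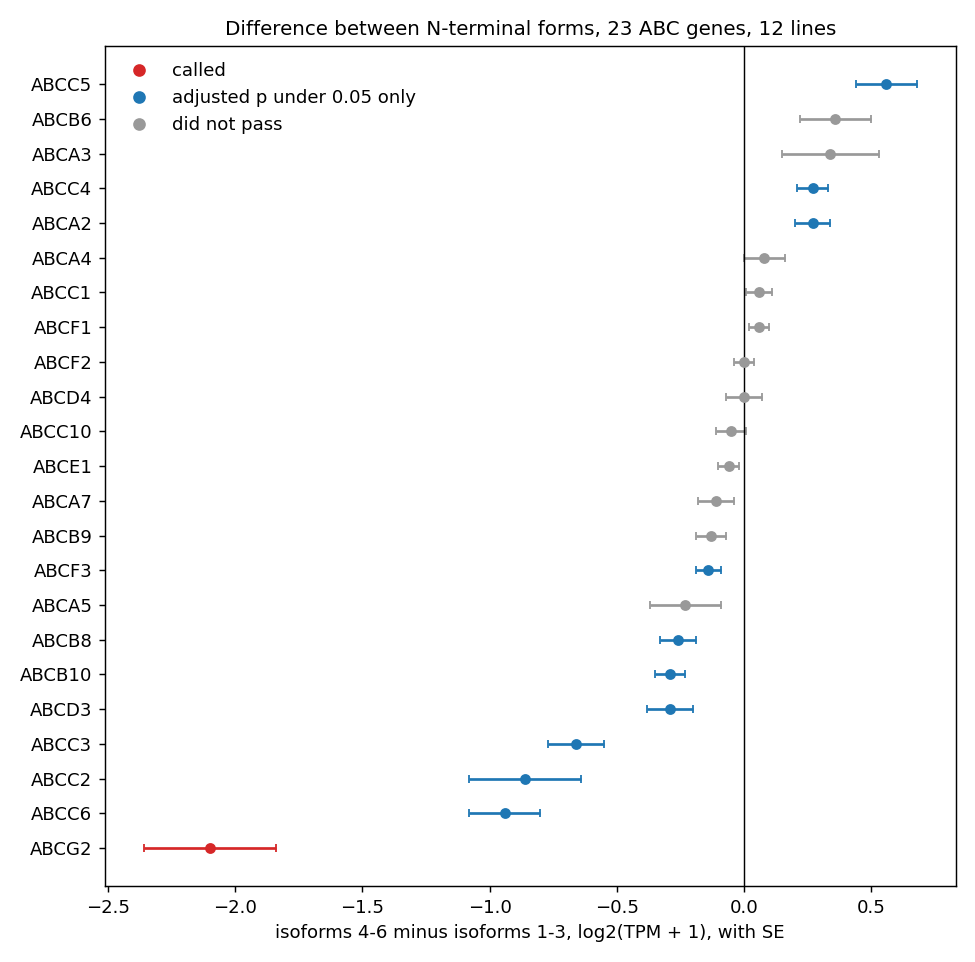
Difference of isoforms 4-6 minus isoforms 1-3 on the log2(TPM + 1) scale for 23 ABC genes, from the model over 12 lines; bars are SE and colours give the test. ABCG2 lies at -2.10 and ABCC5, at the other end, at 0.56.

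No member was called in the other form comparisons. For isoforms 7-9 against isoforms 1-3, where 0.52% of all genes were called, 12 members had an unadjusted p under 0.05, against 31.9% of all genes, and 2 passed, ABCC4 (0.32 ± 0.06 SE; limma adjusted p = 0.0149) and ABCC1 (0.24 ± 0.05 SE; limma adjusted p = 0.0275), against 11.6% of all genes. ABCG2 differed there by 0.11 ± 0.26 (SE; limma adjusted p = 0.8). For isoforms 10-12 against 7-9 no member was called or passed with limma, and 3 had an unadjusted p under 0.05. Over all genes the shares called, passed and under that unadjusted p were 0%, 0% and 7.55%. For the 10-residue insertion no member was called, passed or had such a p, with shares of all genes of 0%, 0% and 3.03%. For the short C-terminus no member was called or passed with limma and 4 had an unadjusted p under 0.05, with shares of all genes of 0.00667%, 0.0133% and 18.2%.

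The 22 members under 1 TPM were ABCC9, ABCG4, ABCA10, ABCA12, ABCB4, ABCC11, ABCG1, ABCB5, ABCD2, ABCB1, ABCA8, ABCA9, ABCA6, ABCC13, ABCA13, ABCC12, ABCG8, ABCG5, ABCA1, ABCC8, CFTR and ABCB11. They include the canonical sterol exporter ABCA1, at most 0.0538 TPM, ABCG5 and ABCG8, which pair with each other to export sterol into bile, at most 0.0872 and 0.077 TPM, and P-glycoprotein ABCB1, at most 0.285 TPM. In a fit without the filter, 8 of the 22 passed in at least 1 line and 14 in none, against 38.2% of all genes in that fit that passed in at least 1. On the log2(TPM + 1) scale the change of such low genes is understated. The low members that passed, higher or lower, numbered from isoform 1 to isoform 12 as follows: 1 and 6, 0 and 5, 0 and 2, 0 and 1, 1 and 2, 0 and 3, 0 and 5, 0 and 4, 0 and 5, 1 and 4, 0 and 3, and 0 and 2. Of all 39252 genes above 0 in any library, 25.8%, 24%, 9.49%, 5.98%, 5.52%, 3.49%, 16.5%, 13.4%, 8.83%, 14.9%, 15.6% and 5.37% passed in the same order. These shares are not split by direction, so the split of the low members into higher and lower is a description only.

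ABCB4 (MDR3), which moves phosphatidylcholine into bile and neighbours ABCB1 on chromosome 7, had 0.909, 0.605 and 0.797 TPM in the parental cells. Isoform 1 had 0.115, 0.0832 and 0.0739 TPM, isoform 2 had 0.11, 0.081 and 0.13, isoform 7 had 0.184, 0.121 and 0.0657, and isoform 9 had 0.0405, 0.0165 and 0.0405. These 12 libraries lay below every parental one. ABCB4 passed lower in 9 lines without the filter, and in isoform 9 its log2(TPM + 1) difference was -0.77 ± 0.07 (SE; limma adjusted p = 7.53e-09). In the authors' deposited table its log2 fold change was -2.29 in isoform 1 and -1.64 in isoform 9, and its adjusted p was under 0.05 in 7 lines. That order differs from the TPM, which was lower in every library of isoform 9 than in isoform 1. The reason for the difference was not tested. Isoform 8, of the same N-terminal form as isoform 9, had 0.383, 0.445 and 0.323 TPM, and the 2 lines did not overlap.

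ABCA12, the keratinocyte glucosylceramide transporter, had 0.757, 0.918 and 0.9 TPM in the parental cells. It had 0.171, 0.17 and 0.224 TPM in isoform 11, the lowest line, and 1.03, 1.18 and 1 TPM in isoform 4, above all parental libraries. ABCA12 passed lower in 10 lines without the filter, all but isoforms 4 and 5, and in the authors' deposited table its adjusted p was under 0.05 and its change downward in 10 lines, with -1.51 in isoform 1. ABCA8, a lipid transporter of the chromosome 17 cluster, had 0.214, 0.206 and 0.236 TPM in the parental cells and 0.0338, 0.0393 and 0.0287 TPM in isoform 11, and passed lower in 9 lines. Its neighbour ABCA10 passed lower in isoforms 1, 2, 5 and 6, between -0.25 and -0.21, while ABCA6 and ABCA9, in the same cluster, passed in no line.

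ABCG1, which loads sterol onto lipoprotein, had 0.258, 0.346 and 0.343 TPM in the parental cells and 0.0379, 0.0187 and 0.043 TPM in isoform 9. ABCG1 passed lower in 7 lines without the filter. Its relative ABCG4 had 0.59, 0.655 and 0.754 TPM in the parental cells, 1.11, 1.38 and 1.35 in isoform 5, and 0.311, 0.291 and 0.42 in isoform 7. ABCG4 passed higher in isoform 5 (0.45 ± 0.07 SE; limma adjusted p = 5.32e-05) and lower in isoforms 1, 7 and 9 (-0.33, -0.31 and -0.23). ABCC11 passed higher in isoform 1 (0.20) and ABCB1 in isoform 10 (0.16), where its libraries had 0.253, 0.249 and 0.285 TPM against 0.168, 0.2 and 0.0394 in the parental cells.

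**Figure D5:**
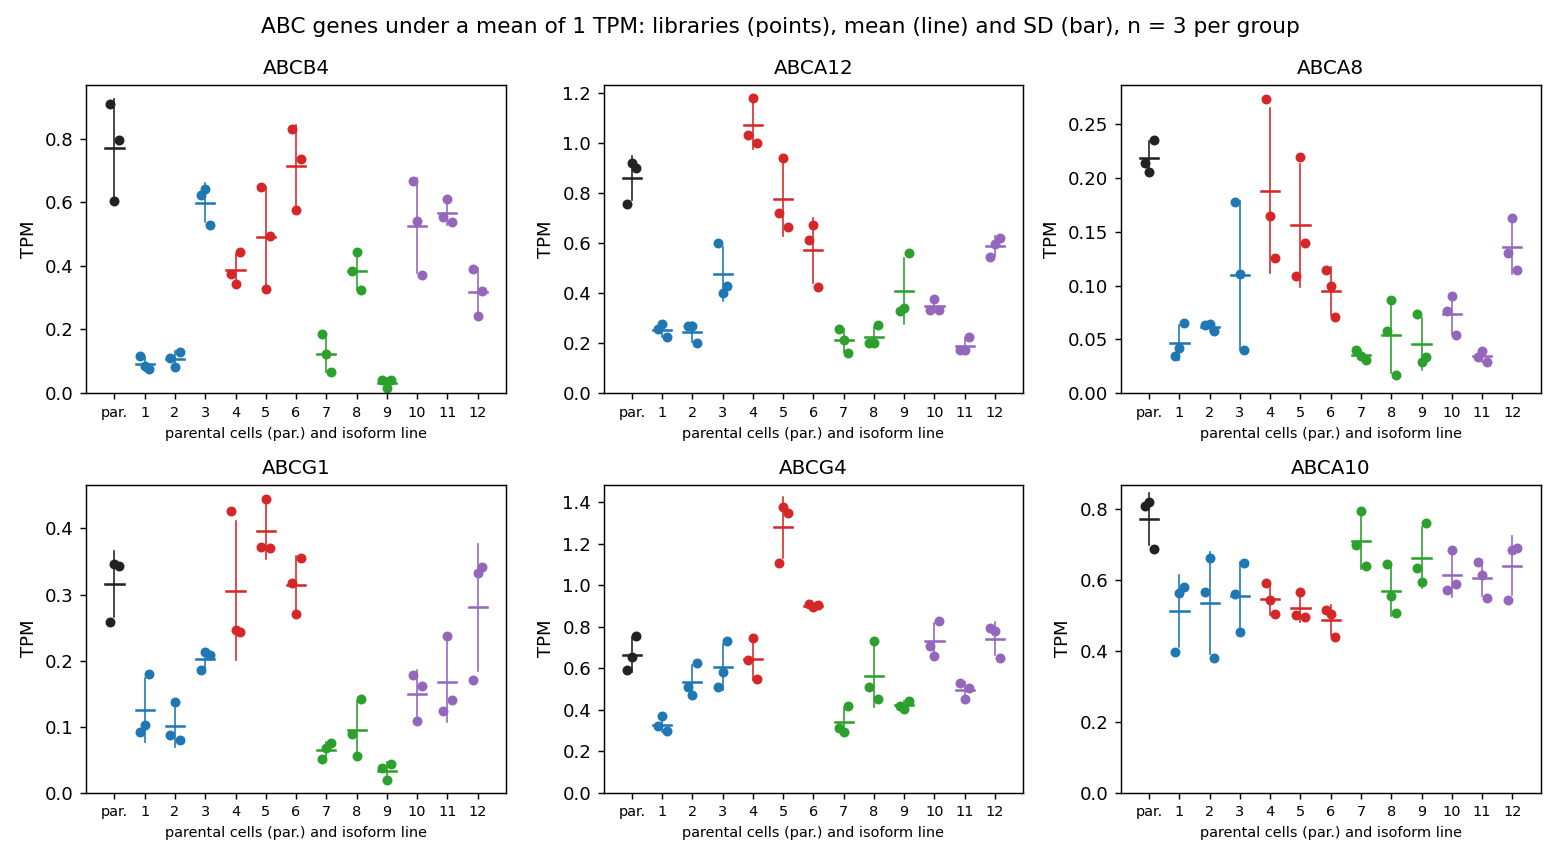
TPM of 6 ABC genes with a mean under 1 TPM in each of 39 libraries, by group (parental cells, then isoforms 1 to 12); points are libraries, lines are means and bars are SD, n = 3. ABCB4 is lowest in isoform 9, at 0.0165 to 0.0405 TPM, and ABCG4 is highest in isoform 5, at 1.11 to 1.38 TPM.

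The authors' own comparison was set beside these tests over 25 genes and 12 lines, 300 pairs in all. Of these 114 passed here and 147 had an adjusted p under 0.05 in the authors' deposited table, and 107 did in both, all 107 in the same direction. That is 107 of 114 and 107 of 147. All 15 calls had an adjusted p under 0.05 in the authors' deposited table. There, the log2 fold change of ABCG2 was 3.46 for isoform 1, 2.96 for isoform 7 and 1.1 for isoform 12.

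Genes that work with the ABC members were read from fixed lists, against the 3.6% and 3.18% of all genes called higher and lower in any line. Of the nuclear receptors and xenobiotic sensors that control many ABC genes, 12 of 16 were tested and 1 was called, NR1I3, the constitutive androstane receptor. NR1I3 rose from 0.884 ± 0.139 TPM to 20.2 ± 1.35, 12.5 ± 0.548, 5.3 ± 2.07 and 3.01 ± 0.257 TPM (SD, n = 3) in isoforms 1, 2, 3 and 10, and was 1.06, 0.9 and 1.02 TPM in isoforms 4, 5 and 6. Its parental mean was under 1 TPM, so it reached the filter through the lines where it was higher. In isoform 3 the log2 fold change was 1.68, and 1.99 without replicate 1, which had 2.91 TPM against 6.33 and 6.65 in the others. The pregnane receptor NR1I2 and the bile acid receptor NR1H4 never exceeded 0.176 and 0.153 TPM. Of the sterol and bile acid partners, 12 of 20 were tested and 2 were called higher. SLCO2B1, an uptake carrier of organic anions, went from 0.0348 TPM in the parental cells to 9.98 ± 1.76 in isoform 1 and 9.72 ± 1.27 in isoform 2 (SD, n = 3), and was called in isoforms 1, 2, 7, 8, 10 and 11. APOA1, the acceptor of exported cholesterol, was called in isoforms 1 and 2, at 5.54 and 3.74 TPM against 0.274. SLCO2B1 and APOA1, too, reached the filter only through lines where they were higher, so their number is a description only.

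Of the partners of chloride and potassium channel members, 10 of 15 were tested and 3 were called. SLC9A3R1, a scaffold that binds apical transporters such as CFTR and ABCC2, went from 88.3 TPM ± 1.87 in the parental cells to 359 ± 14.7 in isoform 1 (SD, n = 3), and was called higher in isoforms 1, 2, 10 and 11, and in isoform 3 without its replicate 1 (1.16). ANO1, a calcium-gated chloride channel, was called higher in isoform 4 (15 TPM against 6.36), passed higher in isoforms 2, 3, 5, 6 and 12, and passed lower in isoforms 7, 9 and 11 (-0.93, -0.60 and -0.66). SLC4A7, a bicarbonate carrier, was called lower in isoform 1 (6.9 TPM against 15.1). Of 14 peroxisomal partners 13 were tested, and the thiolases ACAA1 and SCP2 were called higher in isoforms 1 and 2, ACAA1 at 114 and 113 TPM against 51.3 and SCP2 at 197 and 201 TPM against 90.6. Of 13 iron-sulfur and heme partners, all tested, none was called with limma, while 12 passed in at least 1 line and all 13 had an unadjusted p under 0.05 in at least 1, against 80% and 89% of all tested genes. TAP1 and TAP2, peptide transporters of antigen presentation and ABC genes outside the naming rule, were not called with limma. They passed in 4 and 5 lines, with lowest log2 fold changes of -0.67 in isoform 1 and -0.77 in isoform 9, and had an unadjusted p under 0.05 in 7 lines each.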

How the data were processed

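Per the labels' protocols, the 39 libraries were made from poly(A) RNA and keep strand. The authors deposited 13 tables with TPM per gene and library. For the 12 lines they also hold the authors' own test, per the file headers: averaged normalised counts (a signal over both groups), log2 fold change and standard error, a statistic (score) and p-value. The submitters' processing notes name Trimmomatic 0.36, FastQC 0.11.5, kallisto 0.44.0, DESeq2 1.22.2 and GRCh38.p12. TPM gives no read depth per library. The authors' deposited mean normalised counts summed to 50609338 to 56136330 per table. Each library's TPM summed to 999972.6 to 999987.7, so a change in some genes shifts all others. No 2 libraries shared over 0.00772% of identical values above 0.

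Here, log2(TPM + 1) was fitted with limma 3.58.1 in R 4.3.3 (13 groups, 26 residual degrees of freedom, mean-variance trend) for the 15003 genes averaging at least 1 TPM. Fold changes on this scale understate those of low genes. The median residual SD was 0.0936. The class model used 12 line means and left 6 residual degrees of freedom. The fit was tested on simulated data. The labels of isoforms 4 and 5 number their samples but repeat 1 library code for all samples of a line. Their 6 data columns could therefore not be matched to a replicate number. Gene names differed in 29 rows between tables and touched no member. Some members enter the counts but are not reported singly here, nor drawn. Positions are from GENCODE 29 (GRCh38). Members called in any line are given by library for the parental cells and their called lines, and are drawn by library in every group. Other tested members are given by library, by range, by fold change or by the lines where they passed. Members under 1 TPM are given by name, 6 of them drawn after their values were seen. The members, partner lists and tests were chosen with earlier results of these data known. Alternatives covered the pseudocount, filter, scaling, minimum fold change, each library left out, a replicate block and 2-group fits.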

Additional observations from a re-analysis of the deposited data

Results flagged for a closer look

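ABCG2 differed between N-terminal forms: isoforms 4-6 against isoforms 1-3 gave -2.10 on the log2(TPM + 1) scale in the model over 12 lines (limma adjusted p = 0.00137).

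In 4 other genes all 3 libraries of 1 line lay above the parental cells and all 3 of another below them, each passing against the parental cells. The difference between the lines was not tested. The share of all tested genes that meet this rule was not counted, so the 4 genes are a description only. ABCA3 had a log2 fold change of 0.67 in isoform 6 and -0.23 in isoform 1, and the latter no longer passed with median-ratio scaling (-0.13; limma adjusted p = 0.201). ABCA5 had 0.39 in isoform 2 and -0.26 in isoform 7 (-0.21 with that scaling; limma adjusted p = 0.0694). ABCC10 had 0.13 in isoform 2 and -0.18 in isoform 9. ABCF3 had 0.18 in isoform 7 and -0.09 in isoform 5 (-0.10 with that scaling; limma adjusted p = 0.0611).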

How the results depend on the processing

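Of 206 recomputed fold changes of called members, 202 kept their direction and call, 4 fell under the minimum fold change and none turned. With a pseudocount of 0.1, isoforms 3, 8, 9, 10 and 12 had 2 called members each, ABCG2 and ABCC6, and isoforms 4-6 against 1-3 had 2. With a filter at 5 TPM, which drops ABCC6, isoforms 1 and 2 had 2 and isoforms 7 and 11 had 1. With no minimum fold change the lines, from isoform 1 to isoform 12, had 17, 17, 10, 4, 5, 3, 11, 9, 10, 10, 10 and 8, and the comparisons of isoforms 4-6 and 7-9 with 1-3 had 12 and 2. With a minimum of 1.5-fold, isoforms 1, 2, 3, 6, 7, 8, 9, 10, 11 and 12 had 5, 6, 2, 1, 4, 2, 3, 2, 3 and 2. The shares of all genes called with the 0.1 pseudocount, the 5 TPM filter or the 1.5-fold minimum are not given here. The counts of members at these settings are therefore a description only. Leaving out 1 library gave 1 to 2 called members in isoform 3, 1 to 2 in isoform 7 and 0 to 1 in isoform 12, and leaving out 1 line gave 1 to 3 for isoforms 4-6 against 1-3. Median-ratio scaling kept 106 of 114 passes, lost 8 and gained 23.

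A replicate block on the 33 libraries matched to a replicate number changed no count of called members (3 in isoform 1 with and without it). The calls over all genes in isoform 1 went from 680 to 678. Over 165 same-numbered pairs the median correlation of deviations was 0.0542, so the numbers were not taken to pair the libraries. TPM gives no depth, so no counting error could be set for members near 0, and the 14 low members that passed in no line may differ by amounts these libraries cannot show.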
